A study of Mus musculus with 10 samples.

Results

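The DNA replication and mitosis genes described here are 38 genes of the cell division cycle, 17 that act in S phase and 21 that act in mitosis, followed across all arrays of a mouse liver study. Each gene was represented by the probe set annotated to it alone that had the highest mean signal over the 10 arrays, and 37 of the 38 genes had such a probe set, out of 18194 genes in all. Ccnb1, the main mitotic cyclin, had none and was not analysed here. A filter on low signals left 27 of them for testing, 14 of 17 replication genes and 13 of 20 mitosis genes. The 10 that stayed below it were Tyms, Ccne2, Cdc6, Bub1, Bub1b, Birc5, Aurkb, Foxm1, Ttk and Kif11, which are given as values only. The grouping into replication and mitosis followed known function, not measured values.

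The livers came from mice of a 129/B6 background, either wild-type or knockout for Gnmt, which encodes glycine N-methyltransferase, the liver enzyme that uses up S-adenosylmethionine. At 11 weeks there were 4 arrays, a female and a male wild-type pool and a female and a male knockout pool, each of RNA mixed from 3 mice. Aged knockout mice gave 6 arrays of single tissues: a dysplastic nodule and its adjacent liver from a 21-month female, a hepatocellular carcinoma (HCC) and its adjacent liver from an 18-month male, and an HCC and its adjacent liver from a 14-month female. The pairing of a lesion with its adjacent liver was inferred from sex and age, since the labels number no mice, and no aged wild-type liver is among the arrays. The p-values measure the spread between these few arrays, and their number limits the precision. For the 4 young pools, fitted by genotype and sex, that spread is how far the knockout effect differs between the sexes. Each pool mixes 3 mice, so the spread between young mice was not measured.

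Entry into the cell cycle is driven by cyclin D and cyclin E kinases, which release E2F transcription factors to switch on genes for licensing origins, opening the helix and supplying nucleotides. The genes of mitosis come on later, in G2 phase, through the MuvB complex with B-MYB and FOXM1, and encode the cyclin B kinase, spindle motors, checkpoint proteins and the machinery that cuts the sister chromatids apart. Hepatocytes of the adult liver are mostly quiescent, but they can re-enter the cycle after tissue loss, and many copy their DNA without dividing, which makes them polyploid.

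The tissue matched its label, as the summed signal of 9 measured hepatocyte markers lay between 376081 and 656990 on every array. The Gnmt signal was 59473 (female) and 52140 (male) without the deletion, against 11.7 to 329.4 on the 8 knockout arrays. Median signals ran from 77.4 to 102.4. The ratio of the BioC to the BioB control was 2.97 to 4.16 on the 4 young arrays and 1.0 to 1.6 on the 6 aged ones, so age and array handling cannot be told apart. Neutrophil markers (8 measured) summed to 15554 in the male HCC and 15539 in its adjacent liver, against 551.9 to 1720 on the other arrays. B and plasma cell markers (7 measured) summed to 944.1 to 1433 on the young and 2751 to 10771 on the aged arrays. In whole liver RNA, fewer cells of a type and less RNA per cell cannot be told apart.

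Both groups of genes had their lowest median in the female wild-type pool, but they peaked on different arrays. The median replication gene, as a log2 difference from the mean of the wild-type pools, was highest in the adjacent liver of the male HCC (1.54), followed by the male knockout pool and the female HCC (1.45 each), the male HCC (1.32) and the nodule (1.15). The median mitosis gene was highest in the male HCC (2.99), followed by the nodule (2.0), the female HCC (1.77) and the liver adjacent to it (1.40). The wild-type pools themselves were at -0.16 (female) and 0.16 (male) for replication and at -0.30 and 0.30 for mitosis genes. The liver adjacent to the nodule lay close to them, at 0.20 for replication and 0.17 for mitosis genes. The female knockout pool was at 0.27 for replication and 0.61 for mitosis genes, above both wild-type pools in each. These medians carry no test, because the genes were chosen with earlier results of these data known. The median of all 18194 genes stayed between -0.07 and 0.10 on every array.

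**Figure D1:**
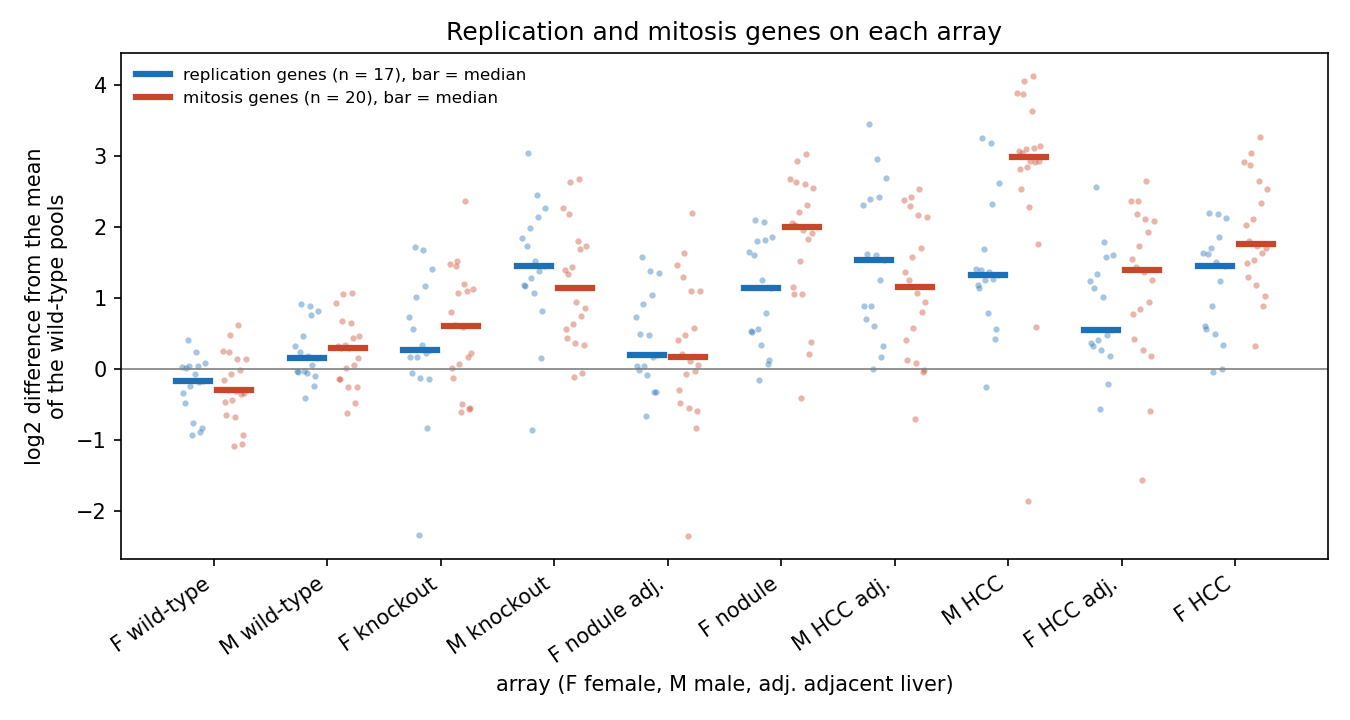
Log2 difference of each gene from the mean of the wild-type pools (y axis) on each of the 10 arrays (x axis), with points for 17 replication genes (blue) and 20 mitosis genes (red) and bars for their medians. The mitosis median stands highest in the male HCC, at 2.99, while the replication median there, 1.32, is below that of its adjacent liver, 1.54.

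On the brightest probe set of each gene, mitosis genes shared a summit and replication genes did not. Of the 20 measured mitosis genes, 19 had their highest signal in the male HCC, and the other, Foxm1, in the female HCC. Dimmer probe sets were divided: the second of Ccna2, Cdc20 and Prc1 also peaked there, but that of Tpx2 did not. The second of Top2a was at 145.5 in the male wild-type pool and 133.4 in the male HCC, and that of Bub1b at 100.5 and 26.7. Replication genes were spread: Mcm3, Mcm4, Mcm6, Hells, Cdc6 and Cdt1 were highest in the liver adjacent to the male HCC, while Pcna, Mcm5, Tyms, Ccne2 and Gmnn were highest in the male knockout pool. Mcm7, Rrm1 and Ccne1 were highest in the male HCC, Mcm2 and Fen1 in the female HCC, and Rrm2 in the nodule. At the other end, the female wild-type pool had the lowest signal of 9 replication and 10 mitosis genes.

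The mitosis median minus the replication median was 1.67 in the male HCC, 0.86 in the nodule and 0.32 in the female HCC. It was -0.37 in the liver adjacent to the male HCC and -0.30 in the male knockout pool. The liver adjacent to the female HCC, at 0.85, and the female knockout pool, at 0.34, were not lesions and were both above the female HCC. With all probe sets of a gene averaged, the male HCC was at 0.68 and the female knockout pool at -0.03.

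**Figure D2:**
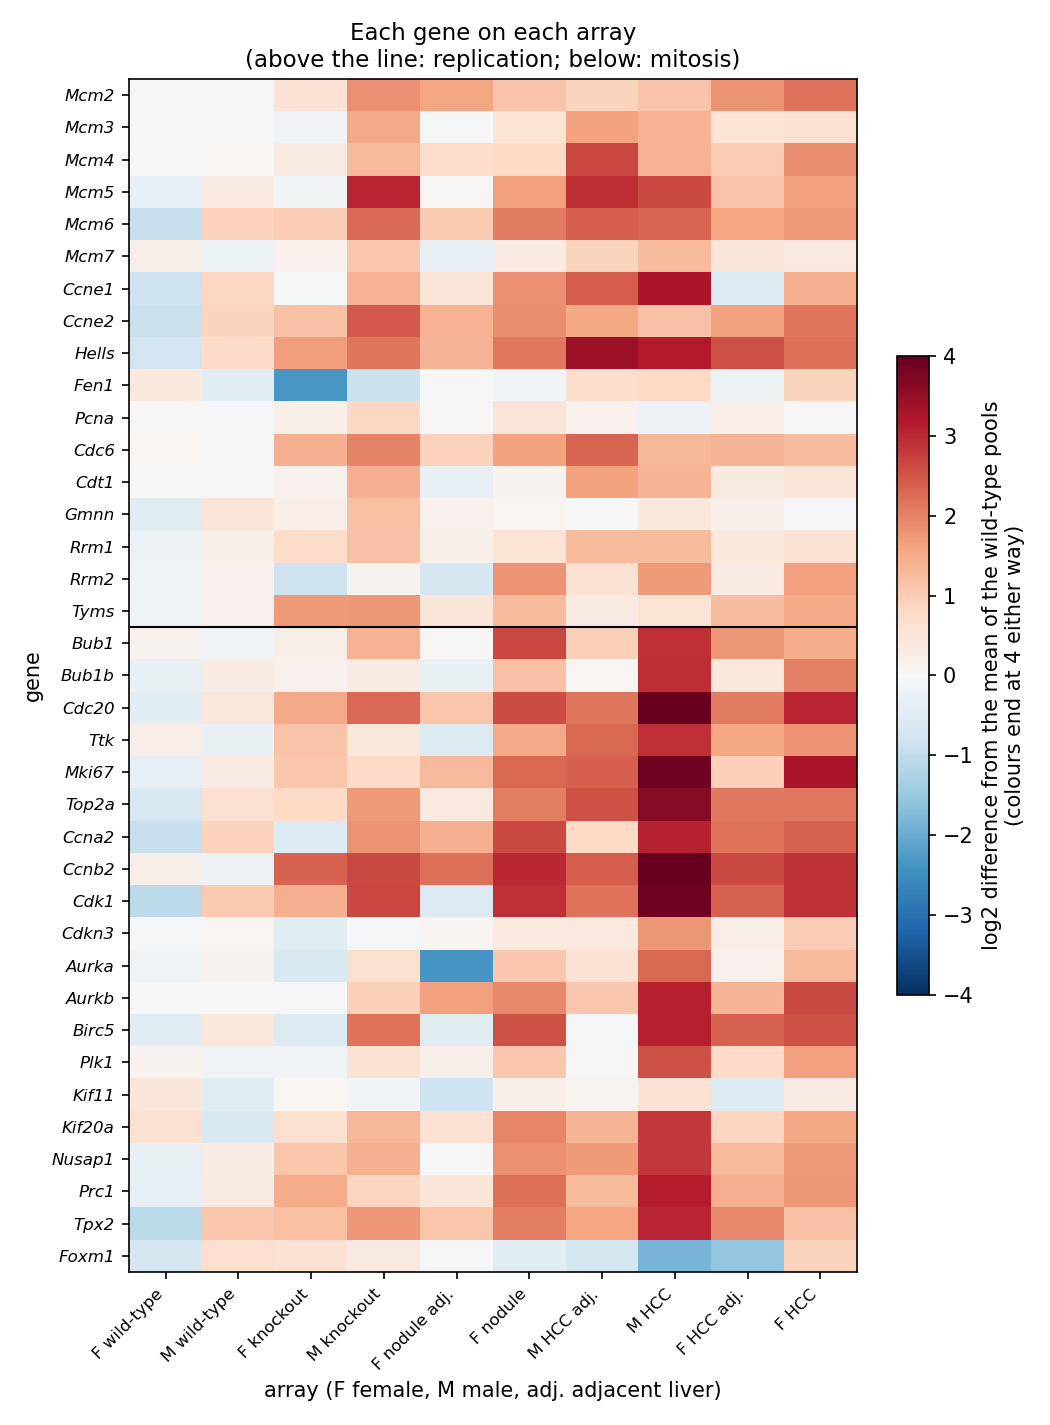
Heat map of 37 genes (rows, replication genes above the line and mitosis genes below it) on 10 arrays (columns), coloured by log2 difference from the mean of the wild-type pools, red for higher and blue for lower. The male HCC column is the darkest red for 19 of 20 mitosis genes, and the male knockout pool and the liver adjacent to the male HCC stand out among the MCM genes.

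On their brightest probe sets mitosis genes thus shared a summit and replication genes did not. The promoters of both groups, which were set by known function, were also searched for the short elements through which E2F and MuvB complexes act. RefSeq promoters of 300 bases, 250 before and 50 after the start on build GRCm38.p6, were found for 30 of the 38 genes. An E2F element (TTTGGCGC, TTTCCCGC, TTTGCCGC or TTTCGCGC, either strand) was in 7 of 14 replication promoters, those of Mcm3, Mcm5, Mcm6, Mcm7, Hells, Cdc6 and Cdt1, and in 1 of 16 mitosis promoters, that of Cdk1. Over 27018 genes with a promoter, the share was 2.61%. A cell cycle homology region, or CHR (TTTGAA or TTCGAA, either strand), was in 13 of 16 mitosis and 3 of 14 replication promoters, against 21.7% of all. The CCAAT box, bound by NF-Y, was in 14 of 16 mitosis and 8 of 14 replication promoters, against 41.1% of all. In the 250 bases before the start alone, a CHR was in 9 of 16 mitosis and 3 of 14 replication promoters, against 19.5% of all. There an E2F element was in 5 of 14 replication and 1 of 16 mitosis promoters, against 2.16% of all. These are letter matches, some of which overlap, and not measured binding. Their part in the signals was not tested.

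The 160 bases before the start are shown for 3 mitosis and 3 replication genes on which the results below turn, in the direction of transcription, with every CHR, CCAAT and E2F match in capitals. They lie at chr4:118437344-118437503 (minus strand) for Cdc20, chr10:69352913-69353072 (minus) for Cdk1, chr7:135716380-135716539 (minus) for Mki67, chr1:128359706-128359865 (minus) for Mcm6, chr8:75109349-75109508 (plus) for Mcm5 and chr12:24708094-24708253 (plus) for Rrm2.
Cdc20: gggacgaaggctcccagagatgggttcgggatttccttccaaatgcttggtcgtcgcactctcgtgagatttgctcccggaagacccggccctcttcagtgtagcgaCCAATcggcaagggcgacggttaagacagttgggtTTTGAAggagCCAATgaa
Cdk1: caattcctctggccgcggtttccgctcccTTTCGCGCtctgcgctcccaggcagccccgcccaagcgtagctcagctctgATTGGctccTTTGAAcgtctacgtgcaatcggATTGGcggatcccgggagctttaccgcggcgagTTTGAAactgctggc
Mki67: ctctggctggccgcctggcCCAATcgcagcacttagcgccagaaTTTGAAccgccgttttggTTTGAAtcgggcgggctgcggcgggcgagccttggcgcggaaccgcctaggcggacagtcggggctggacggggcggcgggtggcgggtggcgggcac
Mcm6: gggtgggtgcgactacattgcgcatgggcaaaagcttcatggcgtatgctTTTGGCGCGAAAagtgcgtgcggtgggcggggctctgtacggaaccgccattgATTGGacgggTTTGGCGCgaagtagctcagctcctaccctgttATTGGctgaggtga
Mcm5: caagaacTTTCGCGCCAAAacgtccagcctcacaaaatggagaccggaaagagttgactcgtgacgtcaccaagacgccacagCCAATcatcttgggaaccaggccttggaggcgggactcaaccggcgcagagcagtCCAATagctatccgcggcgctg
Rrm2: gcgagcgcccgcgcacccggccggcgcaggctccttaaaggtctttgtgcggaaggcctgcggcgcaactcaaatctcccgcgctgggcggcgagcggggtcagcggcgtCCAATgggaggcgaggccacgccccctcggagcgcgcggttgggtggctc
Cdc20 and Cdk1 carried CHR and CCAAT letters within 80 bases of the start, Cdk1 an E2F element further out, and Mki67 a pair of CHR matches. Mcm6 had 3 E2F matches and Mcm5 a pair, some of them overlapping, and neither had a CHR. Rrm2 had a CCAAT box and neither of the other elements in this window.

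The first comparison asked how the loss of Gnmt bears on these genes in young liver before tumours. Both groups were higher in knockout than in wild-type liver, with a median log2 difference of 0.81 for the 17 replication genes and 0.81 for the 20 mitosis genes, against -0.06 for all genes. Of the replication genes 13 were higher and 2 lower in both sexes, and of the mitosis genes 14 were higher and 1 lower. Over all 18194 genes, 4769 were higher and 6097 lower in both sexes. These values rest on the brightest probe set of each gene. The 21 other probe sets of the mitosis genes moved little, with 11 higher and 10 lower in females (median 0.01) and 14 higher and 6 lower in males (0.16). Of the 26 other probe sets of replication genes, 15 were higher and 11 lower in females (0.08), and 22 higher and 4 lower in males (1.0). Without the male knockout pool the replication median was 0.52. Only Cdc20 passed the test. That is 1 of 27 tested genes, where limma called 0.844% of 11022 genes higher at an adjusted p below 0.05. Calls over the array numbered 93 higher and 99 lower, a split that became 256 and 103 with arrays centred on their 75th percentile. An unadjusted p below 0.05 was reached by 13 of the 27 and by 2164 genes in all.

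Cdc20, which activates the anaphase promoting complex to start chromatid separation, had signals of 67.2 in the female and 137.4 in the male wild-type pool, and of 309.5 in the female and 529.3 in the male knockout pool. Both knockout pools were above both wild-type pools, and the female was the lower in each genotype. It rose by 1.89 ± 0.32 on the log2 scale (SE, 2 pools a side, limma adjusted p = 0.0437). The call was lost in the 4 fits that left out 1 pool and in 6 other settings. Its other 2 probe sets moved less, by 0.47 and -0.71 in females and by 1.19 and 0.75 in males, and the mean over all 3 gave 0.92.

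Of the cyclin and kinase genes, Cdk1, the kinase that drives entry into mitosis, had signals of 15.2 in the female and 120.7 in the male wild-type pool and of 164.4 in the female and 406.3 in the male knockout pool. The knockout pools were the higher, and its difference was 2.06 ± 0.46 (SE, 2 pools a side, limma adjusted p = 0.0796). Ccnb2, a partner cyclin of Cdk1, was at 18.3 and 8.2 in the female and male wild-type pools, near the added constant of 16.8, and at 136.7 and 167.6 in the female and male knockout pools. The groups did not overlap, but the difference of 2.51 ± 0.75 did not pass (limma adjusted p = 0.146). Ccna2, the cyclin of S phase and early mitosis, was at 10.3 and 18.6 in the female wild-type and knockout pools and at 81.2 and 164.0 in the male ones. Its second probe set, nearly as bright, was at 47.1 and 106.2 in the female and at 42.0 and 123.1 in the male pools. Both probe sets were higher in the knockout pool of each sex, but only the first set the sexes apart.

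The MCM proteins, which form the ring helicase that opens DNA, gave differences of 0.62 (Mcm7), 0.69 (Mcm3), 0.81 (Mcm4), 1.21 (Mcm2), 1.46 (Mcm5) and 1.64 (Mcm6), none of which passed. Mcm6 was at 55.5 in the female and 243.7 in the male wild-type pool and at 259.5 and 644.8 in the female and male knockout pools. The female knockout pool was only just above the male wild-type pool, and the limma adjusted p was 0.0583. Hells, a chromatin remodeller of replicating heterochromatin, went from 2.3 and 37.9 in the female and male wild-type pools to 86.3 and 126.3 in the knockout ones, a difference of 1.91 ± 0.84 (SE, 2 pools a side, limma adjusted p = 0.269). With all probe sets averaged, Mcm6 differed by 0.81 and Hells by 1.06.

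Licensing and nucleotide genes were also mostly higher. Cdc6, which loads the MCM ring, was at 7.0 and 4.2 in the female and male wild-type pools and at 42.7 and 71.5 in the knockout ones. Tyms, thymidylate synthase, was at 6.5 and 12.3 in wild-type liver and at 68.6 and 69.7 without Gnmt, again female first. Neither gene passed the filter on low signals, but neither overlapped between genotypes. Rrm1, the large subunit of ribonucleotide reductase, differed by 0.95 ± 0.26 (limma adjusted p = 0.124), and its small subunit Rrm2 by -0.34 ± 0.28 (limma adjusted p = 0.555).

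Fen1, the nuclease that trims Okazaki fragments, was the clearest exception, with a difference of -1.60 ± 0.50 (limma adjusted p = 0.156). Its signals were 802.4 (female) and 449.2 (male) in wild-type liver, against 105.5 (female) and 323.9 (male) without Gnmt. The knockout pools were lower, but a second Fen1 probe set went the other way, by 0.57 in females and 1.05 in males, so no direction holds for the gene.

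Counts by size gave the same picture without a test. At least 2-fold higher in both sexes were 10 of the 37 genes (Mcm6, Tyms, Ccne2, Hells, Cdc6, Top2a, Ccnb2, Cdk1, Cdc20 and Nusap1), against 2.13% of all genes. The second probe set of Top2a went the other way, by -0.94 in females and -1.25 in males, as did the third of Tyms (-1.91 and -0.18) and, in females, the second of Nusap1 (-1.92). Both knockout pools lay above both wild-type pools for 22 of 37, 10 replication and 12 mitosis genes, against 18.7% of all. Several other measures moved with genotype. The Actb 3' to 5' ratio, which tracks RNA integrity and labelling, was 2.62 and 2.60 in wild-type liver and 3.38 and 3.18 without Gnmt (female first). The summed signal of 10 endothelial markers was 13972 and 10795 in wild-type liver and 5704 and 5875 without Gnmt, with 9 of the 10 lower in both sexes. That of 11 macrophage and Kupffer cell markers was 30329 and 20163 against 17289 and 16681, with 8 of 11 lower in both sexes. That of 9 hepatocyte markers was 538805 and 490014 against 484681 and 428042, with 9 of 9 lower in both sexes and a median log2 difference of -0.14. No marker of these lists was below the added constant on every array. Their part in the result was not tested.

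The sexes differed in which genes were higher without Gnmt. In males, 19 of 37 genes were at least 2-fold higher, 11 of them replication genes and all 6 MCM genes among these, against 10.2% of all genes. In females 14 of 37 were, 5 replication and 9 mitosis genes, against 7.87% of all. The replication median was 1.34 in males and 0.52 in females, while the mitosis median was 0.80 in males and 0.67 in females.

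Mcm5 showed it most. Its signals were 93.2 and 157.5 in the female and male wild-type pools and 110.2 and 1129 in the female and male knockout pools. Only the male knockout pool stood apart. Over all 19 MCM probe sets, 18 were higher in the male knockout pool than in the male wild-type pool, with a median of 1.36, and 12 in the female one, with a median of 0.21. Cdt1, which brings MCM rings to origins, followed the same shape, with 383.2 and 370.1 in wild-type liver and 428.2 and 1057 without Gnmt, female first.

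A test of the knockout effect in males minus that in females did not call any gene. In that limma fit, with the spread taken from the aged pairs, 0 of 11022 genes were called and 340 had an unadjusted p below 0.05. Among the 27 genes, 5 had an unadjusted p below 0.05, namely Mcm5 (2.51 ± 0.93), Fen1 (2.29 ± 0.69), Mcm3 (1.71 ± 0.67), Mcm7 (1.37 ± 0.53) and Cdt1 (1.32 ± 0.53), each with a limma adjusted p of 1.0. The difference between the sexes is thus a pattern in 4 pools and passed no test. It is also the spread against which the p-values of knockout against wild-type liver were set.

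The same 4 pools were also compared by sex. Females were lower for both groups, with a median log2 difference of -0.61 for replication and -0.46 for mitosis genes, against 0.04 for all genes. No tested gene of the 27 was called by limma, where 0.281% of 11022 genes were called in either direction, and 8 of the 27 and 1014 of all genes had an unadjusted p below 0.05. Among tested genes the largest differences were in Ccna2 (-2.10 ± 0.81, limma adjusted p = 0.5), Mcm5 (-1.92 ± 0.56, 0.382), Cdk1 (-1.66 ± 0.46, 0.364), Mcm6 (-1.55 ± 0.32, 0.211) and Ccne1, the cyclin of S phase entry (-1.54 ± 0.45, 0.383). Birc5, below the filter, had female minus male values of -0.93 (wild-type pools) and -2.74 (knockout pools). The Ccna2 value rests on 1 probe set: the second, given above, was near level between the sexes, and the mean of both gave -1.07. It was -0.89 in a model over all 10 arrays, where the sexes of the aged arrays enter too, and -0.57 to -0.40 in that model with a pool left out. At least 2-fold lower in females of both genotypes were 5 of 37 genes, Ccna2, Cdk1, Mcm6, Ccne1 and Ccne2, against 1.22% of all. In the female wild-type pool Ccna2 (10.3), Cdk1 (15.2) and Ccne2 (2.0) were below the added constant of 16.8. The second probe set of Mcm6, female first, was at 55.9 and 66.0 in wild-type and at 89.0 and 266.3 in knockout pools. That of Ccne1 was at 19.9 and 141.8 in wild-type and at 19.1 and 168.3 in knockout pools. This comparison shares its arrays with the genotype comparison.

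The next comparison asked what sets HCC apart from the liver around it. Mitosis genes were higher in the tumours, with a median log2 difference of 1.08 over 20 genes, and 16 of them were higher and none lower in both pairs. Replication genes were not shifted, with a median of 0.08 over 17 genes, of which 6 were higher and 3 lower in both pairs. The median of all 18194 genes was 0.01, with 4746 higher and 4743 lower in both pairs. None of the 27 tested genes was called, where limma called 0.109% of 11022 genes in either direction, and 10 of the 27 and 845 of all genes had an unadjusted p below 0.05. The 21 other probe sets of the mitosis genes had medians of 0.66 in the male and 0.26 in the female pair, and the 26 of the replication genes -0.20 and 0.29.

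**Figure D3:**
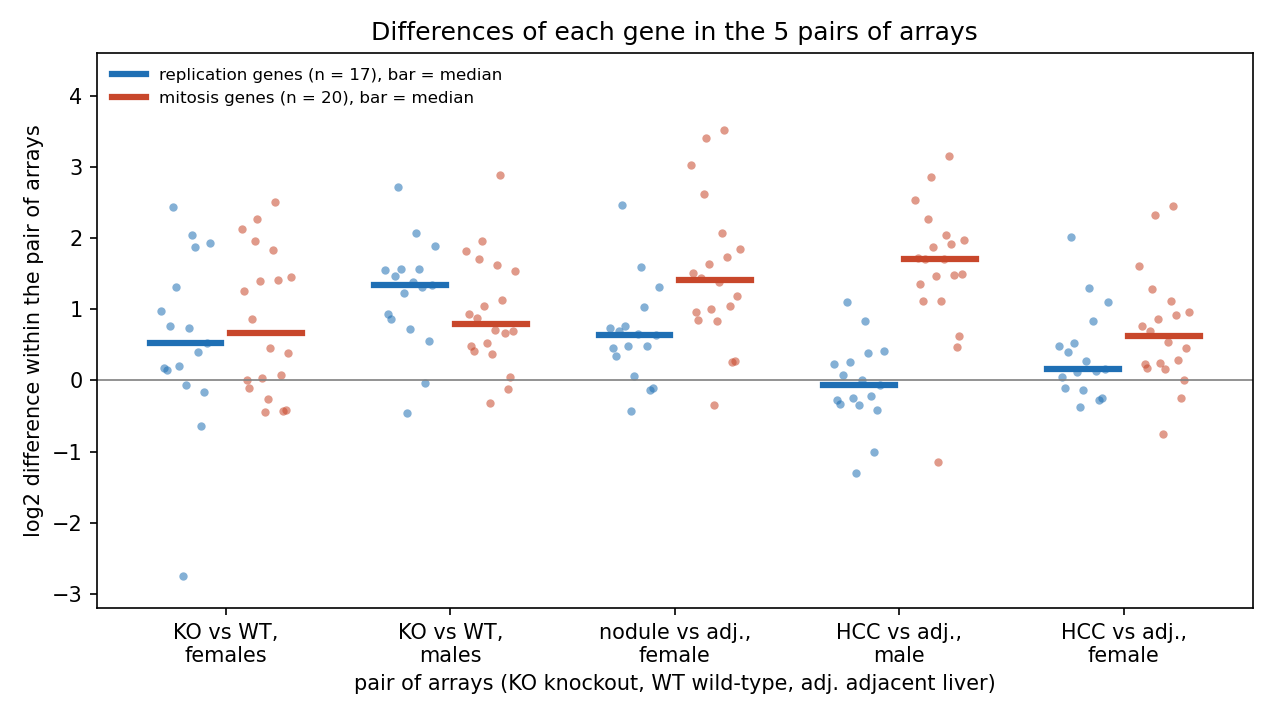
Log2 difference of each gene (y axis) in the 5 pairs of arrays (x axis): knockout minus wild-type pool in each sex, and lesion minus adjacent liver in each aged mouse, with bars for the medians of 17 replication (blue) and 20 mitosis genes (red). In the male HCC the replication median is -0.07 and the mitosis median 1.70, whereas in the knockout males replication, at 1.34, is above mitosis, at 0.80.

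Mki67, the coat protein of mitotic chromosomes known from Ki-67 staining, was at 937.5 in the male HCC and 320.3 in its adjacent liver, and at 610.5 in the female HCC and 107.9 in its adjacent liver. Both tumours lay above both adjacent livers. The difference was 1.92 ± 0.34 (SE, n = 2 pairs, limma adjusted p = 0.108). Cdc20 was at 1886 and 922.2 in the male and female HCC and at 486.1 and 464.5 in their adjacent livers, again without overlap, a difference of 1.44 ± 0.32 (SE, n = 2 pairs, limma adjusted p = 0.181). Its other 2 probe sets differed by 1.49 and 0.93 in the male and by 0.27 and -0.86 in the female pair, so the female pair has no settled direction, and the mean over all 3 gave 0.79.

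Plk1, the polo kinase of spindle assembly, was at 504.8 in the male HCC and 72.8 in its adjacent liver, and at 263.0 and 136.7 in the female pair. Its difference was 1.70 ± 0.49 (SE, n = 2 pairs, limma adjusted p = 0.342). Aurka, the centrosome kinase, was at 653.0 and 189.9 in the male and at 322.5 and 139.7 in the female pair. For both kinases the tumours were the higher arrays, with no overlap. Aurkb and Birc5, kinase and survivin subunits of the chromosomal passenger complex, lay below the filter and differed by 2.05 and 3.15 in the male pair and by 1.28 and 0.18 in the female pair.

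The MCM genes did not follow. Mcm6 was at 669.8 in the male HCC and 706.0 in its adjacent liver, and at 432.8 and 395.1 in the female pair. Mcm5 was at 837.9 and 1056 in the male and at 411.1 and 287.6 in the female pair. On these probe sets both genes were close within a mouse and higher in the male than in the female mouse. Averaged over both pairs, the differences of the 6 MCM genes ran from -0.23 to 0.33, but opposite values could cancel. Mcm4 differed by -1.3 in the male and 0.84 in the female pair, and its second probe set by -0.02 and -0.14. The second probe set of Mcm6 differed by -1.21 and 0.90, and that of Mcm5 by -0.86 and 0.25. Of all 19 MCM probe sets, 7 were higher and 12 lower in the male tumour (median -0.21), and 15 higher and 4 lower in the female one (0.28). Pcna, the sliding clamp of the replication fork, differed by -0.34 ± 0.27 (SE, n = 2 pairs, limma adjusted p = 0.856).

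Among replication genes Rrm2 and Ccne1 moved with the mitosis genes instead. Rrm2 was at 1323 in the male HCC and 610.0 in its adjacent liver, and at 1262 and 502.1 in the female pair, a difference of 1.20 ± 0.28 (SE, n = 2 pairs, limma adjusted p = 0.195). The tumours lay above both adjacent livers. With its second probe set, the brightest without x or s in its name, the difference was 0.66. The third differed by 1.09 in the male and by -0.02 in the female pair, so there the tumours overlapped the adjacent livers. Ccne1 was at 956.1 and 529.3 in the male and at 260.5 and 52.2 in the female pair. Each tumour was above its own adjacent liver, but the female tumour was below the adjacent liver of the male, and the difference of 1.42 ± 0.39 did not pass (limma adjusted p = 0.304).

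The split between the groups was wider in the male pair. There 18 of 37 genes were at least 2-fold higher in the tumour, 17 mitosis genes and Rrm2, against 9.73% of all genes. In the female pair 8 of 37 were, 5 mitosis and 3 replication genes, against 10.9% of all. The mitosis median minus the replication median was 1.77 in the male and 0.46 in the female pair. At least 2-fold higher in both pairs were Mki67, Bub1b, Aurka, Aurkb and Rrm2, 5 of 37 genes, against 1.93% of all. Mki67 had no other probe set, and no other probe set of the rest was 2-fold higher in both pairs. Second probe sets gave, male pair first, 0.01 and -0.06 (Bub1b), 1.23 and 0.26 (Aurka), 1.35 and -0.04 (Aurkb) and 0.70 and 0.63 (Rrm2). In a limma test of the difference between the pairs 0 of the 27 genes were called, and 1 had an unadjusted p below 0.05, Mcm4 at -2.14 ± 0.61 (adjusted p = 0.41), where 1 of 11022 genes was called and 923 had an unadjusted p below 0.05. Neutrophil markers were as high in the male tumour as in its adjacent liver. The summed endothelial markers were 14634 in the male tumour and 10177 beside it, and 6724 and 6346 in the female pair, with 6 of 10 higher in both. The Actb 3' to 5' ratio was 3.0 in the male tumour and 3.62 beside it, and 3.46 and 2.61 in the female pair. The part of these measures in the result was not tested.

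Foxm1, a transcription factor of mitotic genes, gave no single answer. Its brightest probe set was at 12.9 in the male HCC and 49.1 in its adjacent liver, and at 181.8 and 19.5 in the female pair. Its second probe set was higher in both tumours, by 2.95 in the male and 2.62 in the female pair, so the male pair has no settled direction for this gene.

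The dysplastic nodule, a lesion that precedes HCC, was set against its adjacent liver on 1 array a side, with no test. Both groups were higher in it, with a median of 1.42 for mitosis and 0.64 for replication genes, against -0.01 for all genes. Over the other probe sets the order turned, with a median of 0.38 for mitosis and 0.55 for replication genes. At least 2-fold higher were 18 of 37 genes, 14 mitosis genes with Mcm5, Mcm6, Rrm2 and Ccne1, against 10.7% of all. Cdk1 went from 27.2 to 488.5, Aurka from 10.2 to 270.7, Birc5 from 17.1 to 260.3 and Rrm2 from 243.7 to 1427. For the first 3 the adjacent liver was at or near the added constant, which limits how exact the differences of 3.52, 3.41 and 3.03 can be. Mcm2 went from 534.7 to 392.8 on its brighter probe set and from 259.5 to 444.6 on its second, so no direction holds for it. Several cell type markers differed too. The summed signal of 11 macrophage and Kupffer cell markers was 33568 in the nodule and 16261 beside it (10 of 11 higher), and that of 10 endothelial markers 8336 and 5688 (10 of 10 higher). The 9 hepatocyte markers summed to 376081 in the nodule and 512373 beside it, and the 7 B and plasma cell markers to 2751 and 10771, every one of them lower in the nodule. Their part in the result was not tested.

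Over all 3 lesions, mitosis genes had a median log2 difference of 1.20, with 16 of 20 higher and none lower in all 3 pairs. The replication median was 0.17, with 4 of 17 higher and none lower in all 3 pairs. That of all 18194 genes was 0.00, with 2705 higher and 2760 lower in all 3 pairs. None of the 27 genes was called, where limma called 0.00907% of 11022 genes, a single gene, and 13 of the 27 and 1101 of all genes had an unadjusted p below 0.05. Among tested genes the largest differences were, for mitosis, in Aurka (2.08 ± 0.48, limma adjusted p = 0.283), Cdk1 (1.93 ± 0.53, 0.345) and Mki67 (1.61 ± 0.31, 0.215), and, for replication, in Rrm2 (1.62 ± 0.30, 0.215) and Ccne1 (1.39 ± 0.30, 0.27). Birc5 and Bub1b, below the filter, differed by 2.12 and 1.97. The Aurka difference was 1.27 with its dim second probe set averaged in, and that of Cdk1 1.13 without the nodule pair. Without the male HCC pair Rrm2 passed, at 1.89 (limma adjusted p = 0.0302).

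The lesions were also set against the adjacent livers by rank, on the brightest probe set of each gene and with no test. All 3 lesions lay above all 3 adjacent livers for 14 of 37 genes, against 4.84% of all. These were Rrm2 and 13 mitosis genes: Ccna2, Ccnb2, Cdk1, Cdc20, Bub1b, Birc5, Aurka, Aurkb, Plk1, Nusap1, Kif11, Kif20a and Prc1. Bub1b, Birc5, Aurkb and Kif11 lay below the filter. Second probe sets of Ccna2, Cdc20, Prc1, Kif11 and Rrm2 also stood clear. Those of Nusap1, Aurka, Aurkb and Bub1b overlapped, as did the third of Bub1b, Cdc20, Kif11 and Rrm2. At least 2-fold higher in all 3 pairs were Mki67, Bub1b, Aurka and Rrm2, 4 of 37, against 0.517% of all. A second Bub1b probe set, about as bright, differed by 0.01 in the male HCC, -0.06 in the female HCC and -0.37 in the nodule pair. In the same order, second probe sets gave 1.23, 0.26 and -0.11 for Aurka and 0.70, 0.63 and 2.66 for Rrm2. The third of Rrm2 gave 1.09, -0.02 and 1.35. Among spindle genes, Kif20a, the kinesin of the late spindle, was at 341.9, 128.6 and 178.7 in the male HCC, female HCC and nodule, and at 112.0, 73.0 and 57.7 in their adjacent livers. Prc1, which bundles midzone microtubules, was at 605.6, 217.8 and 312.7 in the lesions and at 152.8, 175.0 and 82.1 beside them, in the same order.

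**Figure D4:**
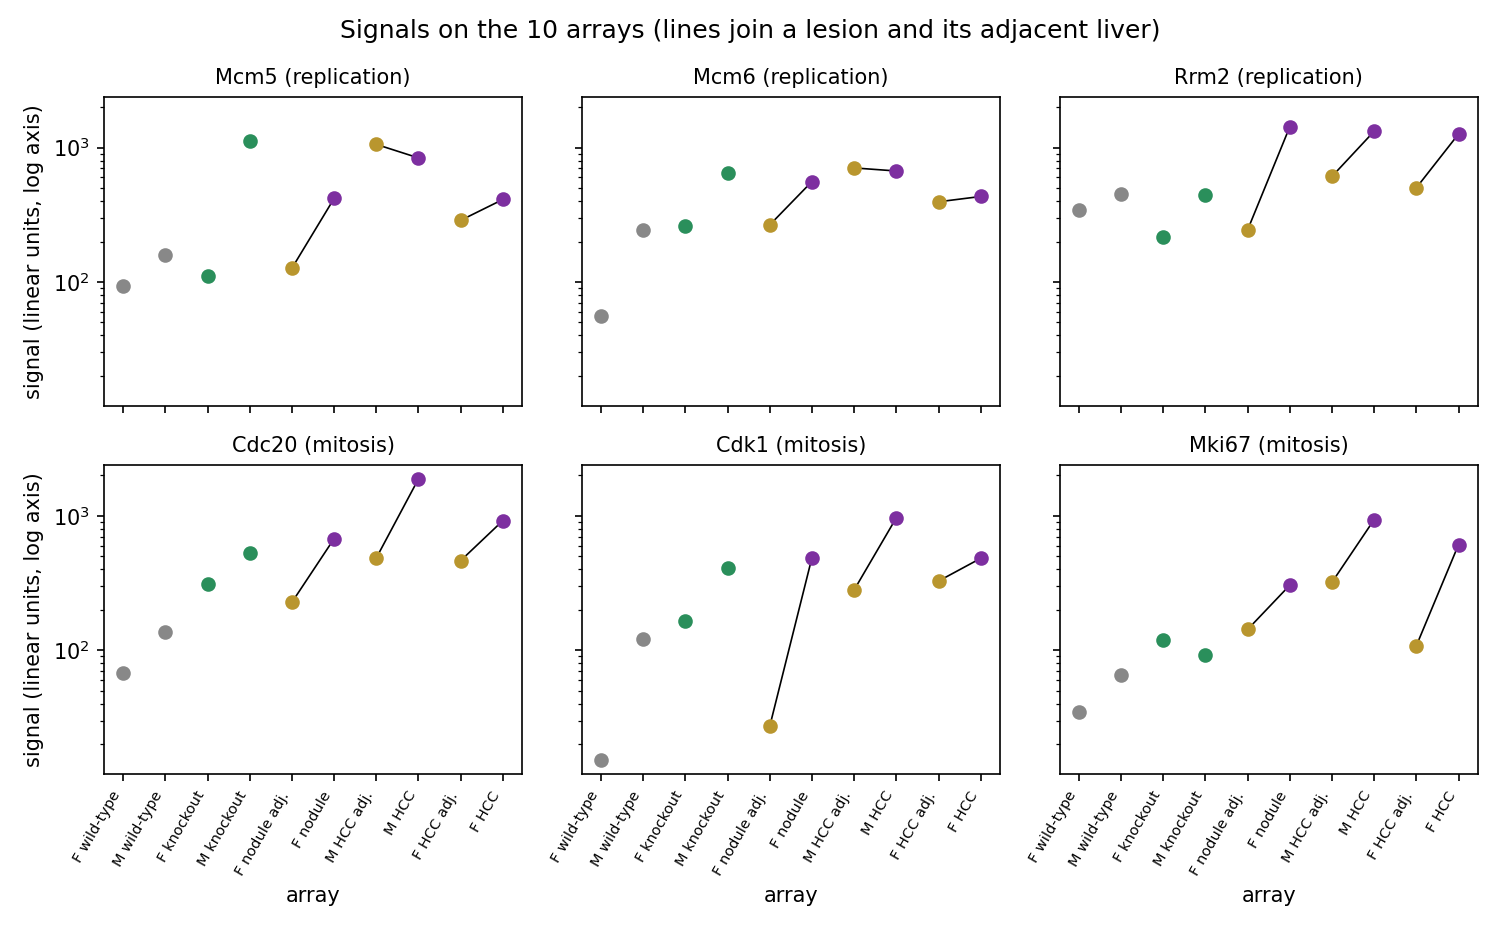
Signals of 3 replication genes (top) and 3 mitosis genes (bottom) on the 10 arrays, on a log axis, with grey for wild-type, green for knockout at 11 weeks, gold for adjacent liver and purple for lesions; lines join a lesion and its adjacent liver. On the probe sets drawn, the brightest of each gene, Mcm6 is near level within the HCC pairs (669.8 and 706.0, 432.8 and 395.1). On them, Rrm2 and the mitosis genes are higher in each lesion than beside it.

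The last comparison set the aged liver beside the lesions against young knockout liver. The medians were 0.23 for replication and 0.02 for mitosis genes, against 0.09 for all genes. Neither has a settled direction: the replication median was -0.42 without the female and 0.26 without the male knockout pool, and the mitosis median -0.23 without the liver beside the female HCC and 0.26 without that beside the nodule. No gene was called by limma (0.0% of 11022), and an unadjusted p below 0.05 was reached by 2 of the 27 and 1362 of all genes. The 3 adjacent livers lay above both young pools for 3 of 37 genes, Aurkb, Fen1 and Cdkn3, a phosphatase of cyclin kinases, against 15.3% of all genes. They lay below them for 3 others, Tyms, Foxm1 and Gmnn, the geminin inhibitor of licensing, against 9.65% of all. Fen1 differed by 1.94 ± 0.28 on its brighter probe set (SE, n = 3 adjacent livers and 2 pools, limma adjusted p = 0.292), and by 1.02 without the female knockout pool. Its second probe set overlapped, with 588.4, 179.1 and 134.2 beside the male HCC, the female HCC and the nodule, and 109.5 and 197.1 in the female and male knockout pools.

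The adjacent livers differed widely among themselves. Mcm4 was at 1189 beside the male HCC, 362.6 beside the female HCC and 295.6 beside the nodule. Hells was at 335.9, 175.2 and 66.2, and Cdt1 at 1188, 490.7 and 298.9, in that order. On these probe sets both genes, like Mcm4, were highest beside the male HCC and lowest beside the nodule. The second probe set of Cdt1 kept that order, at 334.3, 173.7 and 136.6. That of Hells did not, at 109.6, 109.6 and 133.5, nor did that of Mcm4, at 701.0, 420.8 and 512.2. Cdk1 was at 281.1, 327.1 and 27.2, low only beside the nodule. The liver adjacent to the male HCC is also the array that shares the high neutrophil signal with that tumour, and the part of those cells in its replication genes was not tested.

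Other genes of the same pathways were taken from lists by function. Further replication genes included those of origin recognition, the GINS complex and the DNA polymerases. Of 46 measured, 32 were higher and 3 lower in both sexes in knockout liver, against 4769 and 6097 of all 18194 genes. The 46 had a median of 0.56, with no call among 38 tested. The same genes were level between HCC and adjacent liver, with a median of -0.06 and no call. In both pairs 12 were higher and 13 lower, against 4746 and 4743 of all 18194 genes. Asf1b, a histone chaperone, was at 9.2 and 14.0 in the female and male wild-type pools and at 48.1 and 338.7 in the knockout ones, a difference of 2.42 ± 0.89 (limma adjusted p = 0.202). Both knockout pools were higher. Timeless, of the fork protection complex, differed by 1.71 ± 0.51 (limma adjusted p = 0.146).

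Of 53 further mitotic genes, 27 were higher and 7 lower in both sexes in knockout liver, with a median of 0.47. Over all 18194 genes the counts were 4769 and 6097. Among 37 tested, 1 rose, Spc24, a kinetochore subunit (1.31 ± 0.23, limma adjusted p = 0.048), and 1 fell, Ccnf, cyclin F (-1.84 ± 0.28, limma adjusted p = 0.0376), where 0.844% of all tested genes were called higher and 0.898% lower. In HCC 40 of the 53 were higher and 3 lower in both pairs (median 0.63), against 4746 and 4743 of all 18194 genes. Over all lesions 37 were higher and none lower in all 3 pairs (median 0.74), against 2705 and 2760 of all. There was no call in either. Hmmr, a spindle protein, was at 763.2, 289.9 and 341.5 in the male HCC, female HCC and nodule and at 123.3, 155.9 and 56.8 beside them, a difference of 1.86 ± 0.39 (limma adjusted p = 0.252). The lesions did not overlap the adjacent livers.

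Genes of the E2F, RB and MuvB families, known as regulators of the cell cycle, went both ways. Of 19 measured, 7 were higher and 6 lower in both sexes in knockout liver (median 0.10, range -0.59 to 0.84). Over all 18194 genes the counts were 4769 and 6097. In HCC 5 of the 19 were higher and 5 lower in both pairs (median -0.04, range -0.74 to 1.05), against 4746 and 4743 of all. Over all lesions 5 were higher and 1 lower in all 3 pairs (median 0.08), against 2705 and 2760 of all. None of the 15 tested was called in any of these. E2f3 had the largest difference in HCC, 1.05 ± 0.34 (limma adjusted p = 0.448), with 491.7 and 455.1 in the male and female HCC and 182.2 and 265.8 in their adjacent livers. Ccnd1, the cyclin that opens the cycle, was at 876.7 (female) and 687.7 (male) in wild-type liver, against 7368 and 4850 without Gnmt. On the aged arrays it was at 7817, 2734 and 2882 in the male HCC, female HCC and nodule, and at 10051, 2993 and 8984 beside them, lower in each lesion than in its adjacent liver.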

How the data were processed

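RNA of 10 mouse liver samples was hybridised to Affymetrix arrays, 1 array a sample. Per the submitters' processing notes and the labels, the authors labelled 5 ug of total RNA and computed signals with GCOS; its version and settings are not given in the sources used here. The deposited table holds linear intensity, 1 value for each probe set and array, with a trimmed mean of 500.0 on every array (2% left out at each end).

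Of 45101 probe sets, 34958 were annotated to 1 gene, 932 to several and 9211 to none; the annotation dates from the platform table and can be old. A constant of 16.8 (the 20th percentile) was added before taking log2, which understates differences of dim genes. A gene was tested where its mean log2 value was above that of a signal of 91.0, which left 11022 of 18194 genes. Models were fitted with limma 3.58.1 in R 4.3.3 with an intensity trend, adjusted by Benjamini-Hochberg over all genes tested, and called below 0.05; values on the log2 scale are differences of the deposited signals so transformed. Sex (young pools, aged against young), genotype (sexes) or mouse (lesions) was a term, leaving 1 residual degree of freedom, or 2 for all lesions and for aged against young liver. Tests of differences between sexes and between pairs were added after seeing the data. The procedure was tested on simulated data.

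The genes, the lists and the motifs were chosen with earlier results of these data known. Named were all called genes, in each group and comparison the 3 largest differences with one direction in every pair, the called or 2 largest per pathway list, and other members with their values. List genes that matched no probe set were not used here. Marker sums add the deposited signals of the brightest probe set per gene. Figures were drawn with matplotlib 3.10.9.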

Additional observations from a re-analysis of the deposited data

Results flagged for a closer look

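Between HCC and adjacent liver the median replication gene moved in opposite directions in the 2 mice, by -0.07 in the male and by 0.16 in the female pair. Both values are small beside the mitosis medians of 1.70 and 0.62 in the same pairs. The difference between the medians was not tested; the test per gene called 0 of 27 genes.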

How the results depend on the processing

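For knockout against wild-type liver, where 1 of the 27 genes was called, quantile normalization called 5 (Cdc20, Cdk1, Mcm2, Mcm6 and Rrm1) and centring on the 75th percentile 3 (Cdc20, Cdk1 and Mcm6). None (0) was called with all probe sets averaged, without x and s probe sets, without the filter or without the intensity trend. The same held in 1 model over all 10 arrays and without the sex term. Fits with a pool left out used the 10-array model, so their calls cannot be set against the main fit. The mitosis median of 0.81 became 1.02 and 0.63 with the constant halved and doubled, 0.96 with quantile normalization, 0.96 with centring and 0.59 with probe sets averaged, and 0.61 to 1.04 with a pool left out. The replication median of 0.81 ranged from 0.60 to 0.96 over processing and from 0.52 to 1.14 with a pool left out. Over all genes the calls were 192, against 620 with quantile normalization, 359 with centring, 138 without the filter, 38 with probe sets averaged, 2 without the sex term, 1 without the trend, 1 in the 10-array model and 0 to 9 with a pool left out.

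For HCC the mitosis median of 1.08 ranged from 1.0 to 1.13 over processing and was 0.62 to 1.70 with a pair left out, and the replication median of 0.08 was 0.03 to 0.08 and -0.07 to 0.16. No gene of the 27 was called in any of the 12 alternatives; all-gene calls of 12 ran from 0 to 28. Over all lesions 0 to 1 of the 27 were called with a pair left out, Rrm2 being called at 1.89 without the male HCC pair, in the 10-array model and in the paired fit, where 155 and 166 of all genes were called against 1. Without the mouse as replicate block (no replicate block) 0 of the 27 were called in HCC and in all lesions.

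For females against males, quantile normalization called 1 of the 27, Mcm6, and 92 of all genes against 31. The mitosis median of -0.46 was -0.37 in the 10-array model, -0.53 and -0.32 with the constant halved and doubled, -0.54 and -0.58 with quantile normalization and centring, -0.29 with probe sets averaged and -0.50 to -0.39 with a pool left out. Fits with a pool left out used all remaining arrays, so that the aged ones enter the sex difference. For aged against young knockout liver the replication median of 0.23 ranged from -0.02 to 0.23 over processing and from -0.42 to 0.26 with an array left out, and the mitosis median of 0.02 from -0.16 to 0.11 and from -0.23 to 0.26. Reversed values were those of Fen1 in the knockout comparison without x and s probe sets (0.81), Rrm1 over all lesions with probe sets averaged (-0.12) and Ccna2 in aged against young knockout liver without the female knockout pool (-0.06, range -0.06 to 2.01). Mitosis minus replication in the male HCC was 0.68 with probe sets averaged. Centring moved the median of all genes by 0.15 in the knockout comparison of each sex, by -0.12 in the nodule and by -0.12 between the sexes of each genotype, and quantile normalization by 0.10 in knockout females. The causes were not tested. Dim signals limit Bub1, Aurkb, Tyms, Cdc6, Bub1b and Ttk most, each with 2 to 4 of its 10 signals below the added constant.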
